A study of Mus musculus with 8 samples.

Results

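Neutrophils carry their antimicrobial proteins in granules and in the cytosol, and 10 genes for such proteins were followed here through the growth plate of the mouse. *Mpo*, *Elane*, *Prtn3* and *Lyz2* encode proteins of the azurophil granule. *Ltf*, *Camp*, *Lcn2* and *Ngp* encode proteins of the specific granule, and *S100a8* and *S100a9* encode the cytosolic alarmin calprotectin. The 10 genes were chosen by symbol among the 43629 genes of the count table. Of these symbols, 9 are paired with an identifier in the authors' table of tested genes, and *Elane* was identified through the reference annotation only.

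All libraries came from Axin2CreERT2;R26RTdTomato mice, in which tamoxifen turns on a red fluorescent reporter in cells that express *Axin2* and in their progeny. Every mouse was given tamoxifen on 3 consecutive days from postnatal day 23 and was examined on postnatal day 30. From cryosections of 8 μm through the growth plate (of the tibia by the labels, of the tibia and femur by the study's methods), a laser cut out TdTomato-positive chondrocytes as the resting zone and unlabeled flattened chondrocytes, lying 50 μm or more from the secondary ossification center, as the proliferative zone. Mice 1 and 2 (male) and mice 6 and 13 (female) gave 1 library of each zone, so n = 4 for each zone and each mouse supplied both. The label marks what expressed *Axin2* in the days of treatment and not only resting cells. The laser took pieces of tissue section and not sorted cells, and no library without tamoxifen was analysed here.

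Granule proteins are made in sequence as a neutrophil matures in the bone marrow. Azurophil proteins such as myeloperoxidase and the serine proteases are transcribed in the early promyelocyte, and specific granule proteins such as lactoferrin follow in the myelocyte. *S100a8* and *S100a9* stay abundant in the mature cell, where their protein complex binds calcium and zinc and, once released, signals through the receptors TLR4 and RAGE.

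Transcription of granule genes is controlled by C/EBP factors, which bind the core TTGCNNAA, and by the ETS factor PU.1, which binds purine-rich sites such as AGGAAG and GAGGAA. The RefSeq promoter windows (GRCm38.p6, 250 bases before to 50 bases after the gene start) held 1 entry for each of the 10 genes. On either strand, TTGCNNAA was found in 4 of the 10 windows (*Lcn2*, *S100a9*, *Ngp* and *Ltf*) and in 10.8% of the 32851 windows of the same length. The palindrome TTGCGCAA was in 0 of the 10 and in 0.183% of all windows. AGGAAG was in 8 of 10 (35.4% of all) and GAGGAA, which can overlap it, in 6 of 10 (28.3% of all). These matches are letters in a window and do not show binding. These windows and all positions in them are counted from the RefSeq start, whereas the gene coordinates given with the values below are those of GENCODE, whose gene starts lie at the RefSeq start or upstream of it. The RefSeq start lies 0, 93, 61, 21 and 513 bases inside the GENCODE gene for *S100a9*, *S100a8*, *Ngp*, *Ltf* and *Lcn2*. The bases of the window before both starts are printed 5′ to 3′ on the gene's strand for *S100a9*, *Ngp* and *Ltf*, which have the C/EBP core there, and, for contrast, for *S100a8*, the partner gene of *S100a9*. The window of *Lcn2* before its RefSeq start lies wholly inside the GENCODE gene and is not printed. Capitals mark every match to TTGCNNAA, AGGAAG or GAGGAA, read on either strand.
S100a9, chr3:90695722-90695971, strand minus: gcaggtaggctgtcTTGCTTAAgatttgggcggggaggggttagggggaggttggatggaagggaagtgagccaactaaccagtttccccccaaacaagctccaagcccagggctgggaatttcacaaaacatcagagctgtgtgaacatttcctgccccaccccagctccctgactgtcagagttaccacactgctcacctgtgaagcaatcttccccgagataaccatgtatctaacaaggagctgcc
S100a8, chr3:90668821-90668977, strand plus: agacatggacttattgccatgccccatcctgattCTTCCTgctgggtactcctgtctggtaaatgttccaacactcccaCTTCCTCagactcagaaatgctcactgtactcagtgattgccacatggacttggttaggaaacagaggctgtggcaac
Ngp, chr9:110419558-110419746, strand plus: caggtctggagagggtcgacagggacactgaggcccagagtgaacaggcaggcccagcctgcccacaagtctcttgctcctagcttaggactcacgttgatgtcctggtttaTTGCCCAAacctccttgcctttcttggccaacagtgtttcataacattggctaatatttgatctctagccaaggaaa
Ltf, chr9:111019042-111019270, strand plus: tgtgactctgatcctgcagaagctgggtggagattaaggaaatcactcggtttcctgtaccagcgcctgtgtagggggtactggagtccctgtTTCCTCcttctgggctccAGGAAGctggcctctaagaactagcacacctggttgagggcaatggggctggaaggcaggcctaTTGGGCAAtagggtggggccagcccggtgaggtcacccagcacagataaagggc
The 2 calprotectin genes differed in these letters. *S100a9* had the core TTGCTTAA at -236 from the RefSeq start and neither purine-rich motif, whereas *S100a8* had purine-rich matches at -216, -171 and -170, a further one at -36 inside the GENCODE gene, and no C/EBP core. *Ngp* had the core TTGCCCAA at -138 and a second, TTGGGCAA, at -11, which also falls inside its GENCODE gene.

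The resting zone libraries held 192882 to 462044 counts on genes and the proliferative zone libraries 249284 to 631474. At a count of 0, up to 3 counts remain possible, which is 5.97 to 14.7 CPM in the resting zone and 4.81 to 12.4 CPM in the proliferative zone. CPM here are counts scaled to a common library size with edgeR's TMM factors. Such limits and the binomial intervals below cover counting error only, because the RNA was amplified and carries no molecular identifiers. Cartilage genes were present in every library, beside genes of bone in the resting zone. The 16 chondrocyte genes examined summed to 7728 to 19911 CPM in the resting zone and 35447 to 60676 CPM in the proliferative zone, with 8 of them called in favor of the proliferative zone and 0 in favor of the resting zone. In the resting zone of mice 1, 2 and 13, the 12 genes of osteoblasts and osteocytes examined summed to 37762, 23392 and 23742 CPM. The chondrocyte genes there summed to less, at 7798, 7728 and 10477 CPM. In the resting zone of mouse 6 these sums were 10447 and 19911 CPM. Collagen genes made up most of the osteoblast and osteocyte counts, which were 12431, 7380, 5251 and 4838 in mice 1, 2, 6 and 13. Of these, *Col1a1* held 8515, 4718, 2580 and 2994, and *Col1a2* held 3478, 2405, 1717 and 1673. The comparison of sums thus rests on *Col1a1* and *Col1a2*, and whether the pieces held chondrocytes alone was not tested.

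In the resting zone, 9 of the 10 genes had counts in all 4 libraries and *Elane* in 3, while in the proliferative zone most of the counts came from mouse 1. In mice 1, 2, 6 and 13, the 10 genes together took 0.357%, 0.453%, 0.445% and 0.349% of all counts in the resting zone, or 0.401 ± 0.0556% (SD, n = 4). The proliferative zone shares of the same mice were 0.0580%, 0.00992%, 0.000158% and 0%, or 0.0170 ± 0.0277% (SD, n = 4). The 4 resting zone shares lay within a narrow band, and every one exceeded every proliferative zone share. For the library of mouse 13, 0 of 249284 counts allow a share of up to 0.00120% by the limit of 3 counts, or 0.00148% by the exact 95% interval. The other 3 proliferative zone libraries held 317, 62 and 1 of these counts, with exact 95% intervals of their shares of 0.0518% to 0.0648%, 0.00760% to 0.0127% and 4.01e-06% to 0.000882%. Of the 380 counts in the proliferative zone, 83.4% came from mouse 1. In bulk tissue, fewer cells of a type and less RNA per cell cannot be told apart.

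**Figure D1:**
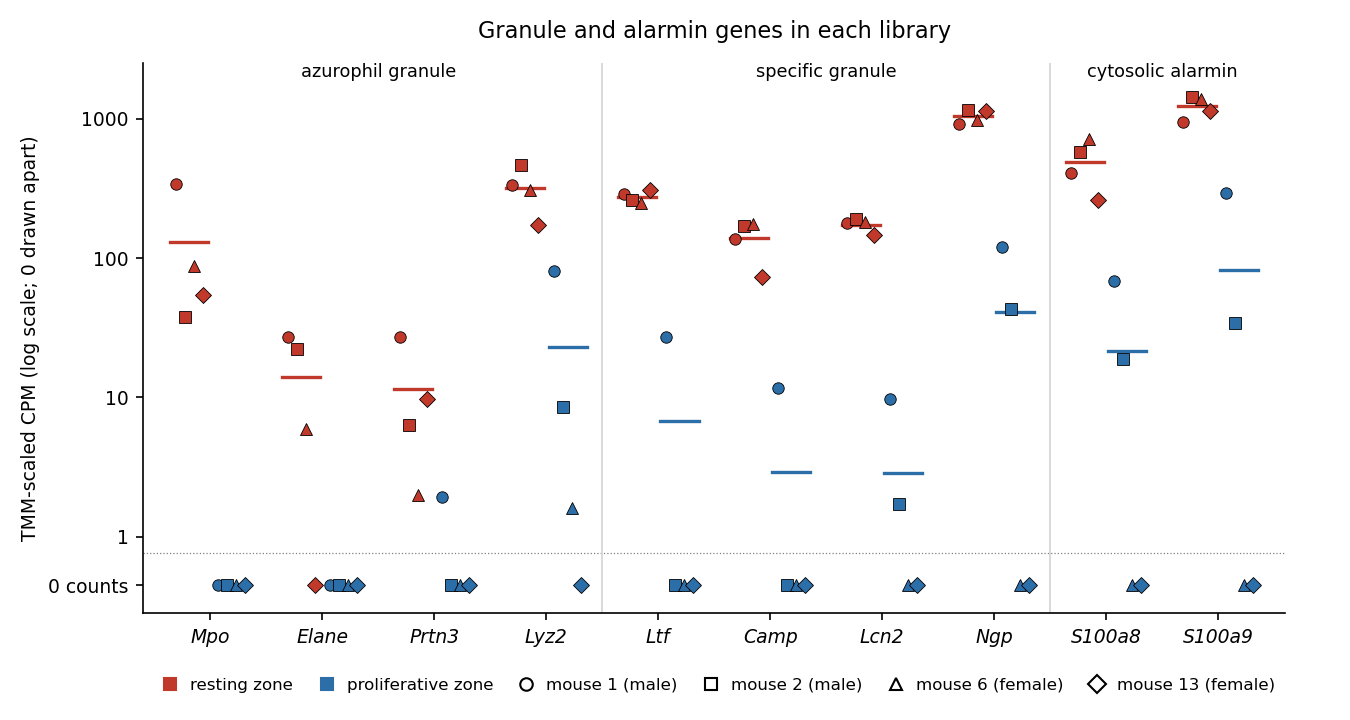
TMM-scaled CPM of each gene on a log scale, with red for the resting zone and blue for the proliferative zone, 1 symbol shape per mouse, and bars at zone means of at least 1 CPM; libraries without a count are drawn on a separate line. The red points lie above the blue points except for *Elane*, which has no count in the resting zone of mouse 13, and *Prtn3*, whose zones meet at 1 count, and blue points above 0 come almost wholly from mice 1 and 2.

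Zones were compared with edgeR's quasi-likelihood test across all genes, and a gene was called at an adjusted p (Benjamini-Hochberg) under 0.01 with a log2 fold change beyond 1 in size. Fold changes are resting over proliferative. The edgeR filter on low counts kept 8 of the 10 genes, and *Elane* and *Prtn3*, which it left out, were read from a second fit over the 17492 genes with a count. By this rule the resting zone was called higher for 8 of the 10 genes, against 4.82% of all 17492 genes. The proliferative zone was called higher for 0 of the 10, against 1.84% of all genes. Of the 3793 genes that passed the filter, 419 were called in the direction of the resting zone. Genes that are rare in 1 zone can pass the filter only through the other, so no share was drawn from those of the 10 that passed. Every resting zone library stood above every proliferative zone library in 9 of the 10 genes (8.38% of all genes), and 9 of 10 were higher in the resting zone of all 4 mice (12.9% of all genes). One of these 9, *Prtn3*, is separated by 1 count in each of 2 libraries (1.99 against 1.94 CPM), which is no difference at this depth. The median log2 fold change was 4.90 over the 10 genes and 0.23 over all genes. With genes that had no count in 1 zone set to the bound that 3 counts per library allow, these medians were 4.30 and 0.00. When the proliferative zone of mouse 2 was left out, the calls fell to 4 of 10 (*Mpo*, *Ltf*, *Camp* and *Lcn2*), and they numbered 8 without both libraries of mouse 1 or without the proliferative zone libraries of mice 1 and 2. These were not the same 8 genes, since under both alternatives *Elane* lost its call (edgeR adjusted p = 0.0825 and 0.0894) and *S100a9* gained one (0.000353 and 1.16e-05).

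*Mpo*, *Elane* and *Prtn3* of the azurophil granule had the lowest mean levels of the set per kilobase of exon. *Mpo* (ENSMUSG00000009350, chromosome 11, 87793581 to 87804413) encodes myeloperoxidase, which makes hypochlorous acid from hydrogen peroxide. Mice 1, 2, 6 and 13 gave 112, 12, 44 and 11 resting zone counts, the order kept for all counts below, and it had 0 counts in all 4 proliferative zone libraries. Mouse 1 stood high within its zone, and the zones did not overlap. The mean was 129.9 ± 142 CPM (SD, n = 4) in the resting zone, at least 18.4-fold above the proliferative zone, where 3 counts per library would average 7.05 CPM (edgeR adjusted p = 0.00101). The bound was 8.49-fold when the resting zone of mouse 1 was left out, and it takes the resting zone mean as observed, without its spread. A 512-base stretch of its exons overlaps *Gm11505* on the opposite strand.

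*Elane* (ENSMUSG00000020125, chromosome 10, 79886247 to 79888215) encodes neutrophil elastase, a serine protease. It had 9, 7, 3 and 0 resting zone counts and 0 in each proliferative zone library, so the zones met at 0 in mouse 13 (exact permutation test, two-sided, p = 0.143). Its mean of 13.9 ± 13.0 CPM (SD, n = 4) was 1.97-fold the 7.05 CPM that 3 counts per library would average in the proliferative zone. Without the resting zone of mouse 1 this bound was 1.33-fold. It leaves out the spread of the resting zone counts. The call (edgeR adjusted p = 0.00430) was lost with the mouse as a replicate block, at an adjusted p = 0.0211. It was also lost without any 1 of 6 libraries, the resting zone libraries of mice 1 and 2 and each proliferative zone library, at adjusted p of 0.0108 to 0.0371. *Prtn3* (ENSMUSG00000057729, chromosome 10, 79874476 to 79883174), the gene of proteinase 3, lies beside *Elane* in the same cluster of serine protease genes. It had 9, 2, 1 and 2 counts in the resting zone and 1, 0, 0 and 0 in the proliferative zone. The pooled ratio of its CPM was 20.4 (exact 95% interval 3.10 to 861, counting error only), and it was not called (adjusted p = 0.0692). Its log2 fold change of 3.59 was 2.66 without the resting zone library of mouse 1, which held 9 of its 14 resting zone counts, and 5.08 without the proliferative zone library of that mouse. In 159 bases its exons overlap *Plppr3* on the opposite strand.

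*Lyz2* (ENSMUSG00000069516, chromosome 10, 117277331 to 117282321) encodes lysozyme, which cleaves bacterial cell walls and which macrophages also make. Counts were 110, 146, 156 and 35 in the resting zone and 42, 5, 1 and 0 in the proliferative zone. No other of the 10 genes had a count in the proliferative zone of mouse 6. The lowest resting zone library, that of mouse 13 at 172 CPM, still lay above the highest proliferative zone library, that of mouse 1 at 81.5 CPM. The zone means were 319.8 ± 119 and 22.9 ± 39.3 CPM (SD, n = 4 each), with a log2 fold change of 3.71 (standard error 0.82, edgeR adjusted p = 0.00429). The call was lost without any 1 of 5 libraries, namely the resting zone of mouse 1 or 2 or the proliferative zone of mouse 2, 6 or 13 (adjusted p 0.0103 to 0.0215), and the log2 fold change was 6.12 when the proliferative zone of mouse 1 was left out. Its near-identical neighbor *Lyz1*, named after its values were seen, had 1 count in the resting zone of mouse 6 and 1 in the proliferative zone of mouse 1, and reads shared by both copies could not be assigned with certainty.

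*Ltf*, *Lcn2* and *Ngp* of the specific granule had the smallest spread relative to their level among resting zone libraries. *Ltf* (ENSMUSG00000032496, chromosome 9, 111019271 to 111042767) encodes lactoferrin, an iron-binding protein. It had 95, 82, 124 and 63 counts in the resting zone and 14, 0, 0 and 0 in the proliferative zone. Scaled to depth, the resting zone libraries lay between 247 and 309 CPM, and only mouse 1 had any count in the proliferative zone. The log2 fold change was 5.20 (standard error 0.80, edgeR adjusted p = 0.000540). *Camp* (ENSMUSG00000038357, chromosome 9, 109847379 to 109849617), the gene of the antimicrobial peptide precursor cathelicidin, followed the same pattern. It had 45, 54, 88 and 15 counts against 6, 0, 0 and 0, or 139 ± 47.0 CPM and 2.91 ± 5.82 CPM (SD, n = 4 each), which gave a log2 fold change of 5.38 (standard error 0.77, edgeR adjusted p = 0.000394). Both genes had 0 proliferative zone counts once mouse 1 was left out.

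*Lcn2* (ENSMUSG00000026822, chromosome 2, 32384633 to 32388252) encodes lipocalin 2, which starves bacteria of iron by binding their siderophores. Counts were 59, 60, 91 and 30 in the resting zone and 5, 1, 0 and 0 in the proliferative zone. Among the 8 genes in the filtered fit it had the smallest adjusted p, at 0.000120, with a log2 fold change of 5.70 (standard error 0.63), which was 7.38 when the proliferative zone of mouse 1 was left out. *Ngp* (ENSMUSG00000032484, chromosome 9, 110419747 to 110423012), the neutrophilic granule protein, is related to the cathelicidins and cystatins. It had 304, 367, 493 and 231 counts in the resting zone and 62, 25, 0 and 0 in the proliferative zone. Its resting zone level varied little, at 1050.3 ± 116 CPM (SD, n = 4), while the proliferative zone ran from 0 to 120.4 CPM. The log2 fold change was 4.61 (standard error 0.86, edgeR adjusted p = 0.00156). It was 5.89 when the proliferative zone of mouse 1 was left out, and with that of mouse 2 left out the call was lost (adjusted p = 0.0105). *Camp*, *Ngp* and *Ltf* lie on chromosome 9 within one region, and *S100a8* and *S100a9* are neighbors on chromosome 3.

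The alarmin pair is cytosolic and lies outside the granules. *S100a8* (ENSMUSG00000056054, chromosome 3, 90668978 to 90670035) had 134, 184, 361 and 53 counts in the resting zone and 35, 11, 0 and 0 in the proliferative zone. The zones did not overlap, with the lowest resting zone library at 260.1 CPM and the highest proliferative zone library at 68.0 CPM. The fitted difference was 4.41 on the log2 scale (standard error 0.80, edgeR adjusted p = 0.00142), and 5.92 when the proliferative zone of mouse 1 was left out. With that of mouse 2 left out the call was lost (adjusted p = 0.010). *S100a9* (ENSMUSG00000056071, chromosome 3, 90692632 to 90695721) had 312, 453, 695 and 234 counts against 152, 20, 0 and 0. Resting zone libraries averaged 1229 ± 225 CPM and proliferative zone libraries 82.3 ± 143 CPM (SD over 4 libraries), with mouse 1 giving 88.4% of the counts in the latter. All 4 resting zone libraries exceeded 295 CPM, the level in the proliferative zone of mouse 1. Its log2 fold change of 3.85 (standard error 1.02) missed the call at an adjusted p = 0.0124. With the mouse as a replicate block it was called, at an adjusted p = 0.00343, and when the proliferative zone of mouse 1 was left out the log2 fold change was 6.42 (adjusted p = 0.000112). The exact permutation test, two-sided, gave p = 0.0286 for each of the 8 genes other than *Elane* and *Prtn3*. This is the smallest value that 4 against 4 libraries allow, and the test ignores the pairing by mouse. Within mice the smallest exact two-sided p is 0.125, so a paired exact test could not go lower for any gene. No p is read for *Prtn3* because its zones met at 1 count.

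**Figure D2:**
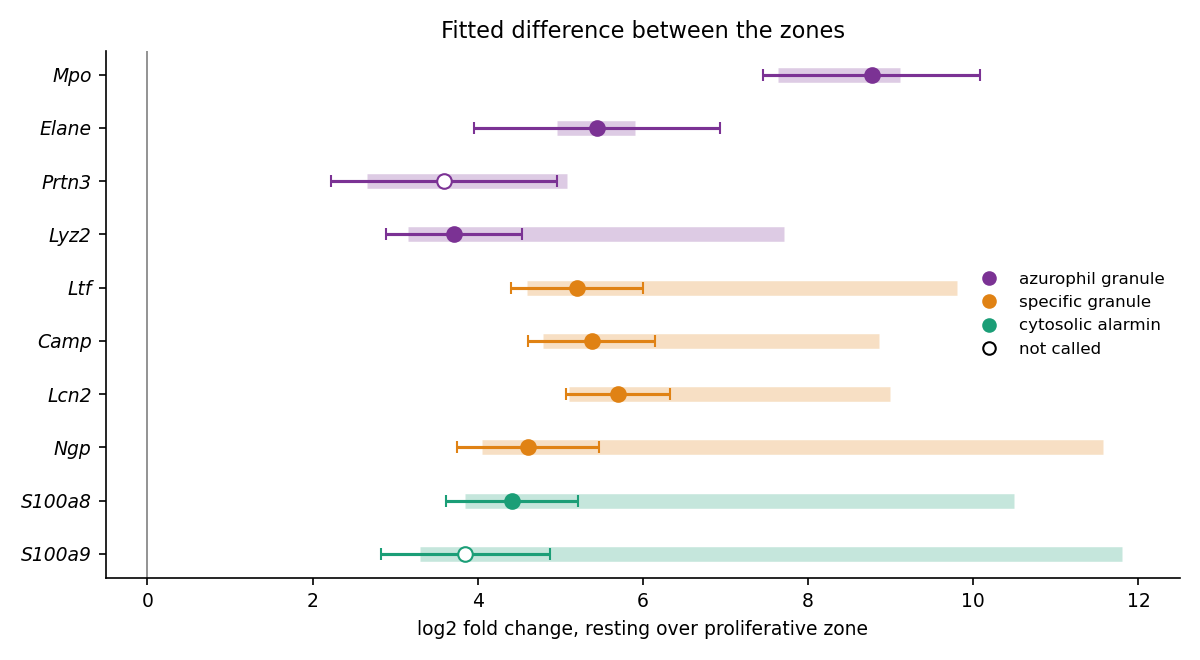
Log2 fold change of each gene between the zones (resting over proliferative), with points and whiskers for the fitted value and its standard error, open points for genes that were not called, and pale bars for the range over 20 alternative analyses. All ranges lie above 0, the lowest value being 2.66 for *Prtn3*; the points of *Mpo* and *Elane* rest on 0 counts in the proliferative zone and are no measured folds.

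Per kilobase of exon, *S100a9* led the resting zone with 2354 ± 431 CPM per kb (SD, n = 4). *Ngp* followed at 859 ± 95.2 and *S100a8* at 709 ± 289 CPM per kb, and these 2 overlapped. Below them came *Lyz2* at 243 ± 90.6 and *Camp* at 184 ± 62 CPM per kb, which also overlapped. *Ltf* (80.0 ± 8.16), *Lcn2* (66.5 ± 7.15), *Mpo* (38.0 ± 41.4), *Elane* (14.1 ± 13.2) and *Prtn3* (6.57 ± 6.42 CPM per kb) formed the lower end, and each overlapped with the next. The ranges over 4 libraries were separate between *S100a9* and *Ngp*, between *S100a8* and *Lyz2* and between *Camp* and *Ltf*. This order depends on the division by exon length. In CPM alone, *Ltf* (247 to 309) lay above *Camp* (73.6 to 175), and *S100a9* (948 to 1436) overlapped with *Ngp* (923 to 1163). By mean level per kb, the alarmin and specific granule genes stood above the azurophil genes with the exception of *Lyz2*, which ranked above *Camp*, *Ltf* and *Lcn2*.

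The make-up of the set was described by the share of each role in its counts, with intervals for counting error only, and differences between libraries were not tested. Azurophil genes held 20.2% of the set's counts in the resting zone of mouse 1 (exact 95% interval 17.9% to 22.6%) and 12.2%, 9.92% and 7.12% in mice 2, 6 and 13. Of these 240, 167, 204 and 48 azurophil counts, 110, 146, 156 and 35 were those of *Lyz2*, which macrophages also make. Specific granule genes held 38.7% to 50.3% and alarmin genes 37.5% to 51.4% across the resting zone libraries. *Mpo* alone made up 9.42% of the set in the resting zone of mouse 1 (7.82% to 11.2%) and 0.878% to 2.14% in the other 3. In the proliferative zone of mouse 1, *Mpo* had 0 of 317 counts (0% to 1.16%). Alarmin genes held 59% there (53.4% to 64.5%) against 37.5% (34.8% to 40.3%) in the resting zone of that mouse. The small proliferative zone set of mouse 2, with 62 counts, had an alarmin share of 50% (37% to 63%), whose interval covers the 46.6% of its resting zone.

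**Figure D3:**
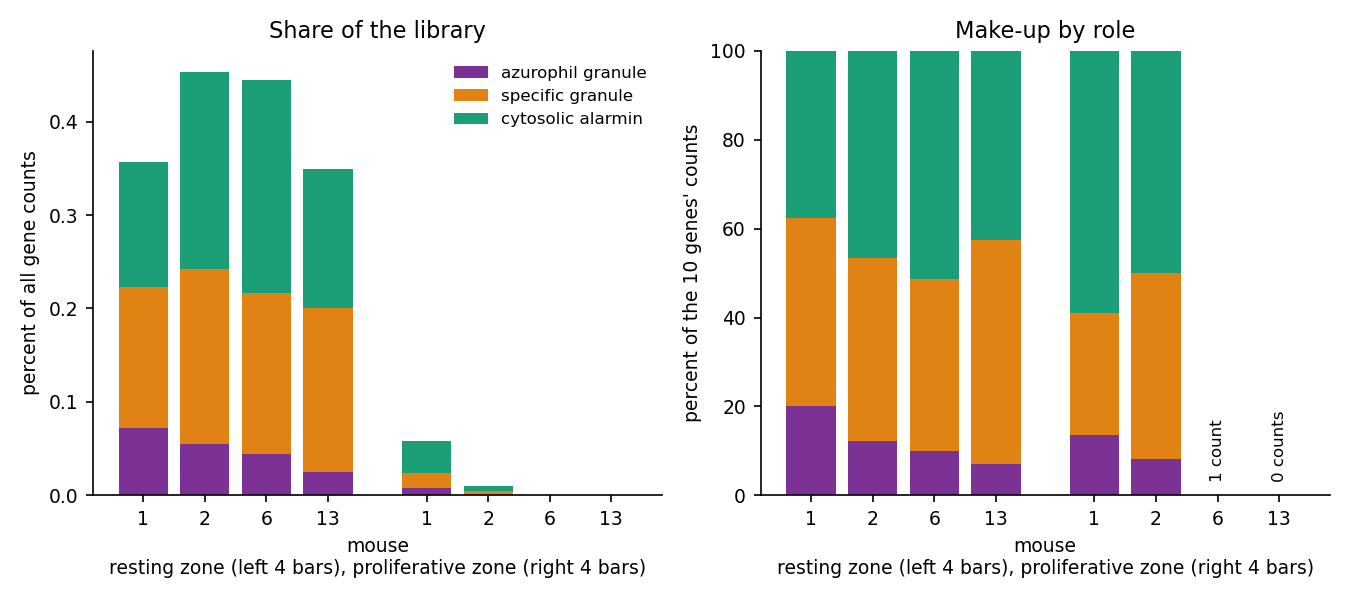
Left, the share of all gene counts in each library taken by the 10 genes, stacked by role; right, the share of each role within the set for libraries with more than 10 such counts. The resting zone bars reach 0.349% to 0.453%, the proliferative zone bars at most 0.0580%, and the azurophil part is largest in the resting zone of mouse 1.

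The count ratio of the 2 calprotectin genes ran from 1.82 to 4.42 over the 6 libraries with counts of both. *S100a9* had 2.33, 2.46, 1.93 and 4.42 counts for each *S100a8* count in the resting zone of mice 1, 2, 6 and 13. As a share of both genes' counts this was 81.5% in mouse 13 (exact 95% interval 76.6% to 85.9%) and 65.8% to 71.1% in the other 3 mice, the highest upper bound of which was 74.6%. The proliferative zone library of mouse 1 had a ratio of 4.34 (81.3%, interval 74.9% to 86.6%) and that of mouse 2 a ratio of 1.82 (64.5%, interval 45.4% to 80.8%). These intervals leave out the spread that amplification adds, so whether the proportion differed between libraries was not tested.

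The proliferative zone libraries with these transcripts were those of the male mice, 1 and 2, and the libraries with 1 count or none were those of the female mice, 6 and 13. Sex, mouse and dissection cannot be told apart in this design. A test of the zone-by-sex interaction, chosen after seeing the data, gave adjusted p under 0.05 in 0 of the 10 genes, the lowest being 0.131 for *Ngp* (edgeR quasi-likelihood test, each gene in the fit used for its call). In the fit over all genes with a count, 4 of 10 (*Ngp*, *S100a8*, *S100a9* and *Lyz2*) were under 0.05. The same 4 genes had adjusted p of 0.131 to 0.724 in the filtered fit. The fit over all genes gave far smaller p-values for variable abundant genes. Its share of all genes under 0.05 was not determined, so no sex effect is read from this count.

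Other granule genes were examined from lists of the same compartments. Of the 15 other specific and gelatinase granule genes, all had a count, and the calls were 8 in favor of the resting zone and 0 in favor of the proliferative zone. Their median log2 fold change was 4.29, or 2.74 with bounds, where that of all genes was 0.23, or 0.00 with bounds. Among the 4 with the lowest p, *Mmp9*, the gene of gelatinase B, which osteoclasts also make, had 168, 71, 205 and 136 counts against 9, 3, 0 and 5 (log2 fold change 5.56, edgeR adjusted p = 0.000135). The chitinase-like genes *Chil1* and *Chil3* had log2 fold changes of 5.43 and 4.29, and *Cd177*, a neutrophil surface and granule protein, one of 5.15. Within each mouse, the summed level of these 15 genes in the proliferative zone was 11.1%, 7.83%, 0.166% and 3.26% of that in the resting zone in mice 1, 2, 6 and 13. This again put mouse 1 highest, as for the 10 genes.

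The 8 other azurophil granule genes gave calls in both directions. *Ctsg*, the protease cathepsin G, and *Ctsc*, which activates these proteases, were both called in favor of the resting zone (log2 fold changes 4.47 and 4.19). *Ctsg* had 23, 4, 11 and 7 counts against 2, 0, 0 and 0. *Prss57*, a further serine protease gene of this list, was called higher in the proliferative zone, with 23, 18, 48 and 6 counts against 126, 105, 163 and 145 (log2 fold change -2.28, edgeR adjusted p = 0.00171). Its exons share 1157 bases with *Fstl3* on the opposite strand, and the strand setting of the counting is not given in the sources used here, so reads of the 2 genes cannot be told apart. *Bpi* had no count in any library. The median of the 7 genes with a count was 0.46.

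Enzymes and proteins that act with the granule proteins followed in part. Of 8 genes of the NADPH oxidase, which supplies the peroxide used by myeloperoxidase, 4 were called higher in the resting zone and 0 lower, with a median log2 fold change of 3.67. *Cybb*, its catalytic subunit, had 13, 43, 43 and 18 counts against 8, 1, 0 and 0 (log2 fold change 4.16, edgeR adjusted p = 0.00198), and *Rac2* and *Ncf1*, also among those called, had log2 fold changes of 5.28 and 5.73. *Ncf1* shares exon bases with *Gtf2ird2* on the opposite strand. Of the 20 genes with a count among 22 protease inhibitors, 3 were called higher in the resting zone: *Serpine2*, the cystatin gene *Cst3* and the stefin gene *Stfa1*. *Stfa1* had 3, 31, 29 and 1 counts against 1, 0, 0 and 0, and stefin genes are near-identical copies, so its counts are uncertain.

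Among the other members of the S100 family, 2 of the 10 with a count were called. *S100a4* had 109, 44, 94 and 57 counts against 29, 4, 3 and 4 (log2 fold change 3.46, edgeR adjusted p = 0.00131), and *S100a6* had a log2 fold change of 3.19 (adjusted p = 0.00122). *S100a4* shares 302 exon bases with *Gm42674* on the same strand. *S100a1*, with 11, 11, 29 and 7 counts against 58, 44, 49 and 17, was not called (log2 fold change -1.04, adjusted p = 0.0371). *S100a5*, *S100a7a*, *S100a14* and *S100z* had no count. The median of the 10 was 0.66. Receptors for the alarmins and granule proteins gave 3 calls among 14 genes with a count, *Cd36*, *Itgb2* and *Emb*, all higher in the resting zone. *Cd14* and *F2rl1* had no count. The receptor genes *Tlr4* and *Ager*, singled out after their values were seen because they encode the main calprotectin receptors, had 0, 0, 24 and 2 counts against 1, 0, 24 and 0, and 1 count in all libraries.

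Of 25 markers of the neutrophil that are not granule proteins, 23 had a count and 7 were called higher in the resting zone, with a median log2 fold change of 3.25 (2.42 with bounds). Their summed level ran from 674 to 1027 CPM in the resting zone and from 8.29 to 61.6 CPM in the proliferative zone of mice 2, 6 and 13. In mouse 1, where it was highest, the proliferative zone held 23.7% of the resting zone level, against 6.00%, 5.94% and 1.02% in mice 2, 6 and 13. In the proliferative zone of mice 6 and 13, all 25 and 2 counts of the list were those of *Gsr* (17 and 2) and *Anxa1* (8 and 0). *Gsr* was singled out after its values were seen. *Retnlg* had 56, 78, 48 and 15 counts against 15, 5, 0 and 0 (log2 fold change 3.83, edgeR adjusted p = 0.00284). *Ifitm6* and *Anxa1* were also called. *Cxcr1* and *Il1r2* had no count. Of the defining surface markers, singled out after their values were seen, *Ly6g* had 5, 7, 5 and 2 counts against 7, 0, 0 and 0 (adjusted p = 0.317) and *Csf3r* 3, 6, 3 and 3 against 1, 0, 0 and 0 (adjusted p = 0.0539).

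Of 20 transcription factors of the granulocyte lineage, 6 were called higher in the resting zone and 0 lower. *Runx1*, *Myb*, *Fli1* and *Cebpb* had the lowest p, with log2 fold changes of 4.91, 5.66, 3.50 and 3.99. *Myb*, which marks immature blood cells, had 15, 20, 14 and 5 counts against 0, 1, 0 and 0. *Runx1*, *Myb* and *Cebpb* each share exon bases with a gene on the opposite strand. The factors best known for granule genes, *Cebpe*, *Gfi1* and *Spi1*, singled out after their values were seen, had at most 5 counts in any library and were not called.

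Marker lists of other cells of blood, marrow and bone held from 0 to 12 genes called higher in the resting zone and 0 called lower, and their part in the results for the 10 genes was not tested. Among erythroid genes, 8 of 13 were called, and the summed level was 2385 to 12528 CPM in the resting zone and 141 to 1899 CPM in the proliferative zone. Of 16 osteoclast genes, 12 were called (2159 to 5207 against 104 to 526 CPM), and of 18 macrophage genes, 9 were called (857 to 1178 against 217 to 485 CPM), with *Marco* and *Vsig4* at 0. In the proliferative zone, *Csf1r*, singled out after its values were seen, held 183, 107, 191 and 91 of the 250, 127, 212 and 101 macrophage counts. It was not called (log2 fold change 0.28, edgeR adjusted p = 0.471), and 873 of its exon bases overlap *Hmgxb3* on the opposite strand. The list of osteoblasts and osteocytes gave 5 calls of 12 (10447 to 37762 against 684 to 4192 CPM), that of endothelium 5 of 10 (245 to 374 against 78.8 to 151 CPM) and that of marrow stroma 3 of 10 (157 to 504 against 4.81 to 66.0 CPM). B lymphoid genes gave 4 calls of 14 (152 to 368 against 3.20 to 40.8 CPM), with *Pax5*, *Rag2* and *Jchain* at 0. The list of T and NK cells gave 0 of 10 (7.96 to 36.5 against 1.94 to 17.1 CPM), with *Cd3e*, *Cd8a* and *Trac* at 0, and its zones overlapped. That of megakaryocytes and platelets gave 2 of 10 (9.81 to 131 against 8.29 to 40.8 CPM), also with overlap. The share of calls over all genes was the 4.82% given above.

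The levels were then set against each other within each mouse. For the 10 genes, the summed level in the proliferative zone was 17.0%, 2.45%, 0.0392% and 0% of that in the resting zone in mice 1, 2, 6 and 13. For the erythroid list these values were 15.2%, 3.76%, 3.97% and 5.91%, and for the osteoclast list 10.4%, 4.84%, 3.25% and 3.27%. No test was made of these differences, and no order is drawn from them in mice 6 and 13. Of genes singled out after their values were seen, *Tfrc*, the transferrin receptor gene of many cell types, held all 113 and 34 erythroid counts of the proliferative zone there, and the other 12 erythroid genes had 0. In the same zone of mouse 6, *Nfatc1*, a transcription factor gene singled out in the same way and not called, held 56 of the 73 osteoclast counts. Within the resting zone, the erythroid sum was 12528, 11737, 4554 and 2385 CPM in mice 1, 2, 6 and 13, and the sum of the 10 genes was 3612, 4333, 4090.4 and 3308 CPM.

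**Figure D4:**
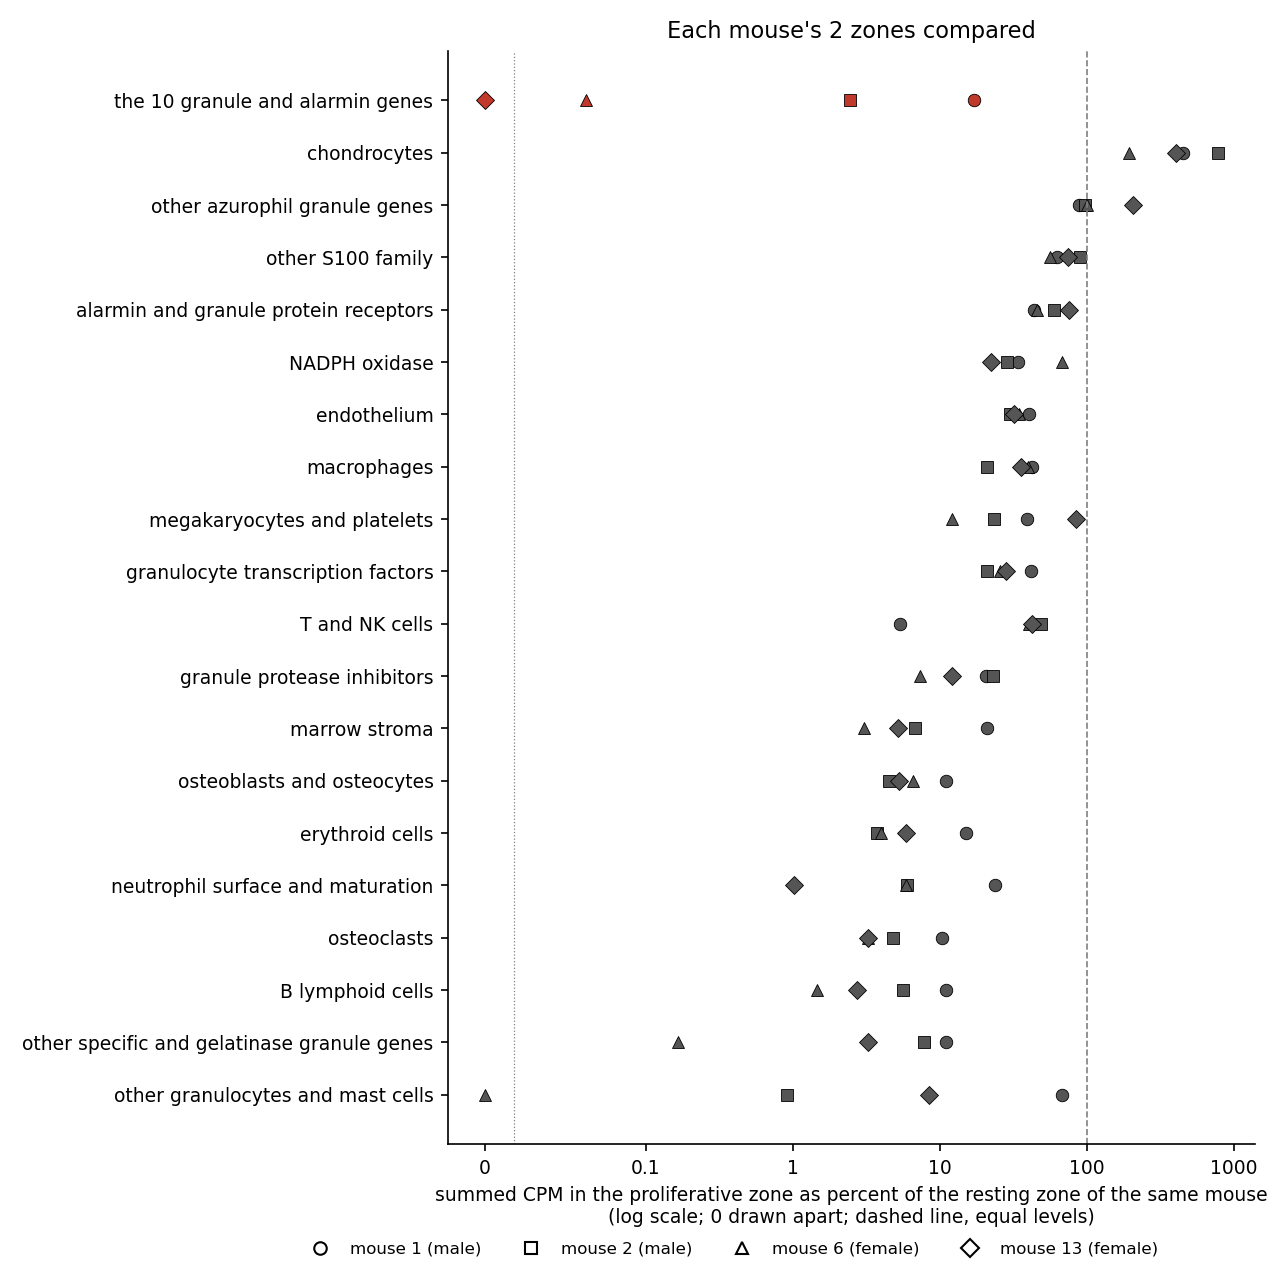
Summed CPM of each gene set in the proliferative zone as a percent of the resting zone of the same mouse, on a log scale with 0 drawn apart and 1 symbol shape per mouse; the granule and S100 sets shown in gray leave out the 10 genes, shown in red. The 10 genes run from 0% to 17.0%, and of the sets shown only the chondrocyte genes lie above 100% in all 4 mice.

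Among the 3785 other genes that passed the filter, the profile of log2(CPM + 1) over the 8 libraries most like that of the 10 genes' sum belonged to *Apex2*, with a root mean square difference of 0.90 on the log2 scale. *G530012D18Rik* (0.92), *Hbb-bs* (0.98), *BE692007* (1.00) and *Hba-a2* (1.11) followed. The libraries differ in depth and in cell markers, which all points share. *Apex2* had 1941, 1670, 633 and 258 counts against 397, 104, 2 and 0, and its exons overlap those of *Alas2*, a gene of heme synthesis in red cells, on the opposite strand. *G530012D18Rik* overlaps *Sp110* and *BE692007* overlaps *Ms4a6c* in the same way. *Hbb-bs* and *Hba-a2* are globin genes with near-identical copies. Of these 5, *G530012D18Rik* was called (log2 fold change 4.00, edgeR adjusted p = 0.00417), and the others had adjusted p from 0.0279 to 0.0381.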

How the data were processed

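RNA was extracted from laser-captured tissue, amplified by in vitro transcription in 2 rounds and sequenced. According to the methods and the submitters' processing notes, after trimming, the authors placed reads on GRCm38 with HISAT2 2.1.0 and counted them per gene with HTSeq 0.11.2; the strand setting of the counting is not given in the sources used here. The deposited count table holds whole-number counts of 43629 genes without normalization, and every test started from it. A second deposited table holds a signal, the authors' TMM-scaled CPM, which was used for gene names and to check the library columns. It also holds the authors' own comparison (fold changes, p-values), which was not used. Genes were named from that table (11840), then from the GENCODE M21 reference (30685), and 1104 had no name. Coordinates are those of that annotation on GRCm38.

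Groups, mice and sexes came from the sample labels. The zones were compared in R 4.3.3 with edgeR 4.0.16 (TMM factors, minimum count 10 and minimum total 15, quasi-likelihood test, zone only, common biological coefficient of variation 0.380), over 3793 genes. Genes left out by the filter were read from a fit over all 17492 genes with a count. The p-values of that fit were far smaller for variable abundant genes. For genes that passed, no call in the main comparison used them. They entered the alternative without a filter, the choice of the list genes named and the second count of the sex interaction. DESeq2 1.42.0 was an alternative. Lists were described by counts and medians with no test. The code of the fits was also run on simulated counts, and no result here rests on that run. Summaries and intervals used Python 3.11.15 with pandas 2.3.3 and SciPy 1.17.1, and plots used matplotlib 3.10.9. Promoter windows came from RefSeq (GRCm38.p6).

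Libraries with the same number come from the same animal by the labels, so they are paired. After removal of zone means, the correlation of same-mouse libraries across genes was 0.1945, 0.0104, 0.1435 and 0.0635 in mice 1, 2, 6 and 13, and that with other mice -0.06238 to -0.00499. The study's methods name no block, so the mouse as a block was an alternative. The p-values measure the spread between these 4 mice per zone.

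The 10 genes, the lists and the tests were chosen with earlier results of these data known. Named genes are the 10 genes, in each list the 4 genes with the lowest p in the fit over all genes, genes at 0 in all libraries where counted, and the 5 genes with the most similar profile (pseudocount 1); some genes that this rule names are not reported here, though list counts and medians include them. Genes named outside this rule are marked as singled out after their values were seen, apart from genes given for overlapping exons. Other tests, scaling factors, filters, thresholds, covariates and each library left out in turn were tried.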

Additional observations from a re-analysis of the deposited data

Results flagged for a closer look

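For each gene and for the share of all 10 in the counts, 20 groups of 4 libraries were examined for a library far from the other 3 by Dixon's test, and 7 held one. Chance gives about 1 in 20 for continuous values, but not for *Ltf*, *Camp* and *Prtn3* in the proliferative zone, where 3 of the 4 libraries had no count and any count in the other meets the criterion. One value stood apart in the resting zone, *Mpo* in mouse 1 at 340.2 CPM, where the other libraries had 38.0 to 87.5 CPM. In the proliferative zone the library of mouse 1 stood above the other 3 for *S100a9* (295 CPM), *Lyz2* (81.5 CPM), *Ltf* (27.2 CPM), *Camp* (11.6 CPM) and *Prtn3* (1.94 CPM, a single count), and for the share of the 10 genes in all counts (0.0580%). These proliferative zone values all come from 1 library and are not independent of each other. In that library, the summed erythroid markers (1899 CPM against 141 to 442 CPM in the other 3) and osteoclast markers (526 against 104 to 170.0 CPM) were also the highest of the zone. So were the neutrophil markers that are not granule proteins (23.7% of the resting zone level of the same mouse, against 1.02% to 6.00%). In the proliferative zone of mice 6 and 13, all counts of these neutrophil markers were those of *Gsr* and *Anxa1*. The part of the 3 marker lists in the values above was not tested. The mean of *S100a9* in the proliferative zone was 82.3 ± 143 CPM with the library of mouse 1 and 11.4 ± 19.8 CPM (SD, n = 3) without it.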

How the results depend on the processing

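The log2 fold changes of the 10 genes were recomputed under 20 alternatives, of which 2 (without mouse 1, and without the proliferative zone libraries of mice 1 and 2) were added after the data were seen. Of the 200 values, 172 kept their direction and their side of the threshold, 20 lost the call, 8 gained it and 0 changed direction. The number of genes called was 8, and it was 4 to 9 over the alternatives: 6 with DESeq2 or when tested against a change of 1 on the log2 scale, 9 with the likelihood ratio test, with sex as a covariate, with an adjusted p threshold of 0.05 or without a filter, and 8 with the other scaling factors. With the mouse as a replicate block it was also 8, *S100a9* being gained and *Elane* lost, and no other call changed. When each library was left out in turn it ranged from 4 (without the proliferative zone library of mouse 2) to 8; there *Ngp*, *S100a8*, *Lyz2* and *Elane* had adjusted p of 0.0105, 0.010, 0.0215 and 0.0212. *Elane* lost its call in 11 alternatives and *Lyz2* in 7, and *S100a9* gained one in 8. The number of genes without overlap was 9 to 10 when each library was left out. The mean difference in the share of all counts, 0.384 percentage points within mice, fell to 0.213 without *S100a8* and *S100a9*, which hold much of the counts by construction, and ranged from 0.367 to 0.401 when each library was left out. Total counts without factors moved the median log2 fold change of all genes by 0.33 and upper quartile factors by -0.21 in the fit over all genes. A filter of at least 10 counts in every library left 0 of the 10 genes. The depth of the libraries limits statements on *Elane* and *Prtn3*, whose largest count was 9.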

Other observations

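Genes of other granulocytes and of platelets were also read in the resting zone. *Prg2* and *Ear2*, which encode granule proteins of the eosinophil, had 16, 49, 72 and 0 counts and 9, 31, 82 and 1 counts in the resting zone of mice 1, 2, 6 and 13. *Prg2* had 34, 0, 0 and 0 counts in the proliferative zone and was not called (log2 fold change 2.35, edgeR adjusted p = 0.158), and *Ear2* was not called either (3.19, adjusted p = 0.0315). Of 19 genes of eosinophils, basophils and mast cells, 13 had a count and 3 were called in favor of the resting zone (*Ear1*, *Ccr3* and *Ear6*, the last named after its values were seen), with a median log2 fold change of 2.35 (1.64 with bounds). *Ccr3*, the eotaxin receptor gene, had 20, 5, 7 and 5 counts against 3, 0, 0 and 0. The summed level of the list was 197, 374, 422 and 49.1 CPM in the resting zone and 134, 3.42, 0 and 4.15 CPM in the proliferative zone. The mast cell genes *Mcpt4*, *Tpsab1*, *Cma1*, *Ms4a2* and *Fcer1a* and the eosinophil receptor gene *Il5ra* had no count. Of 10 genes of megakaryocytes and platelets, 2 were called in the same direction, *Pf4* (4, 5, 13 and 0 counts against 0 in each proliferative zone library) and *Ppbp* (13, 5, 43 and 0 against 9, 0, 0 and 0). These descriptions cover 4 mice, and no test was made of the difference between these genes and the 10 genes.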
